A study of Mus musculus with 6 samples.

Results

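The cells described here were 1026 barcodes of the untreated whole-epithelium library of the mouse submandibular gland that gave a large share of their RNA to 7 genes of salivary acini. They were chosen by measured values: at least 500 genes, at most 20% mitochondrial UMIs (unique molecular identifiers, the counted molecules), and at least 30% of gene UMIs from Mucl2, Pip, Prol1, Scgb1b27, Scgb2b27, Smgc and Car6 together. They were 1026 of the 4093 barcodes of that library that met the first 2 limits, of 8277 barcodes in the library and of 16640 in the series. The other 3067 barcodes of the library are called the other barcodes. Because the 7 genes set the gate, their levels are a description and carry no test.

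The series holds 3 libraries of the 10x Genomics 3' chemistry, each a pool of 3 female C57BL/6J mice, an inbred laboratory strain. The irradiated whole epithelium came from glands collected 90 days after 30 Gy to the left gland, the basal sort and the whole epithelium from mice with no irradiation. Mice of 8 to 10 weeks are named in the labels for each library, and the age of the irradiated mice at collection is not stated separately. Cells of the whole epithelium were sorted for the epithelial surface protein Epcam, those of the basal sort also for high Cd49f, the integrin alpha 6 chain, and in each sort DAPI-positive cells and cells with Cd3, Cd16/32, Cd31 or Cd45 on the surface were left out. Each condition is a single library, so condition and library cannot be told apart.

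Acini are the secretory end pieces of a salivary gland. Their cells translate saliva proteins at the rough endoplasmic reticulum (ER), store them in granules, and release them with a chloride-driven flow of water that leaves through the water channel Aqp5. In the mouse submandibular gland short intercalated ducts carry this saliva to granular ducts, which store kallikreins and growth factors of their own. Mucl2 and Prol1 code for mucin-like saliva proteins, Pip for prolactin-induced protein, Scgb1b27 and Scgb2b27 for secretoglobins of the androgen-binding protein family, Car6 for the carbonic anhydrase of saliva, and Smgc for submandibular gland protein C, a mucin-like product read from the Muc19 locus.

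The mice of a pool were told apart by hashtag antibodies, each tagged with a DNA oligo that is counted with the cell. These 3 oligos are shown because they decide which acinar-gated barcodes have a mouse at all.
hashtag of mouse 1: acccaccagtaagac
hashtag of mouse 2: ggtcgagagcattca
hashtag of mouse 3: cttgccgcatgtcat
Only 173 of the 1026 acinar-gated barcodes (16.9%) were hashtag singlets, with 54 from mouse 1, 59 from mouse 2 and 60 from mouse 3. A further 833 (81.2%) had no hashtag call and 20 (1.95%) were hashtag doublets. Among the other barcodes 886 (28.9%) had no call, 2043 were singlets and 138 were doublets. The median hashtag count was 136 UMIs in acinar-gated and 138 UMIs in other barcodes without a call, and 240 UMIs in acinar-gated and 250 UMIs in other singlets. The unhashed barcodes therefore have no mouse, and they enter below as 1 sum without a test.

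The promoters of the genes that lead the acinar-gated barcodes are shown next, as the 250 bases before the transcript start on the coding strand (RefSeq, GRCm38.p6). Mucl2 and Smgc lie on the same chromosome on opposite strands and marked separate barcodes, and Scgb2b26 is the most abundant acinar transcript that the gate did not use.
Mucl2, chr15:103899313-103899562, minus strand: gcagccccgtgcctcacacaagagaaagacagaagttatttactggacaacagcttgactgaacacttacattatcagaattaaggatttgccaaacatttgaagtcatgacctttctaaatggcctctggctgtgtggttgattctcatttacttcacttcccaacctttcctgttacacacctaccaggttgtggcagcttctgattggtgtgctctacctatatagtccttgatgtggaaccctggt
Smgc, chr15:91838078-91838327, plus strand: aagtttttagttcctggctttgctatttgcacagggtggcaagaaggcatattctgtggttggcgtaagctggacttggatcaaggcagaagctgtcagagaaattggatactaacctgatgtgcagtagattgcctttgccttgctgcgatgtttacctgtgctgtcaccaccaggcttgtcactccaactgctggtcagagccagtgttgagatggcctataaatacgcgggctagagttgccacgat
Scgb2b26, chr7:33944986-33945235, minus strand: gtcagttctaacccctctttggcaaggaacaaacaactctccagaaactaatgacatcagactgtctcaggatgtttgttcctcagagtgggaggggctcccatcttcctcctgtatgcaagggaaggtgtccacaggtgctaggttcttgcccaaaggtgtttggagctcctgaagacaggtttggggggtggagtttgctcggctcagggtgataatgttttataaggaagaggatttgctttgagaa
The E-box CATATG, searched on both strands in these 250 bases, was found in 3.98% of 27025 mouse promoters and in 0 of the 7 gate genes. The Scgb2b26 gene spans 33942997 to 33944985 of chromosome 7, beside Scgb2b27 at 34011919 to 34013942 and Scgb1b27 at 34021481 to 34022881. Members of this gene family are similar in sequence, so reads of one can be counted to another.

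The irradiated library held 58485558 gene UMIs, the basal sort 59207148 and the untreated whole epithelium 137835128, with medians of 17000, 11980 and 6755 per barcode. Mitochondrial UMIs made up a median of 5.25% of a barcode in the irradiated library and 5.19% in the basal sort, against 19.3% in the untreated whole epithelium. The untreated library shared 8 barcode sequences with the irradiated one and 15 with the basal sort, and 2 acinar-gated barcodes recurred in each. In the untreated library every other barcode held Mucl2, at 0.164% of UMIs or more, and no empty-droplet profile was analysed here. The median Mucl2 share over all barcodes past the filter was 0.00679% in the irradiated library and 0.00395% in the basal sort, against 1.03% in the untreated whole epithelium.

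The acinar-gated barcodes were deep. They held a median of 35120 gene UMIs (lowest 1298, highest 434500), against 10720 in the other barcodes, and a median of 2608 genes, against 2674. The 7 gate genes made up a median of 81.9% of their UMIs, against 1.29%. Their median mitochondrial share was 3.06%, against 9.46%. This is a share of all gene UMIs, so the gate genes lower it in the acinar-gated barcodes. No doublet caller was run beyond the hashtags. By a rule on duct and ionocyte markers, 62 acinar-gated barcodes (6.04%) also met the marker level of another class, 56 of them that of intercalated duct. Mucl2 was the highest of the 7 genes in all 62. The intercalated duct rule counts Elf5, which was itself higher in acinar-gated than in other barcodes, as given below. Whether these barcodes held mixed cells was not tested.

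**Figure D1:**
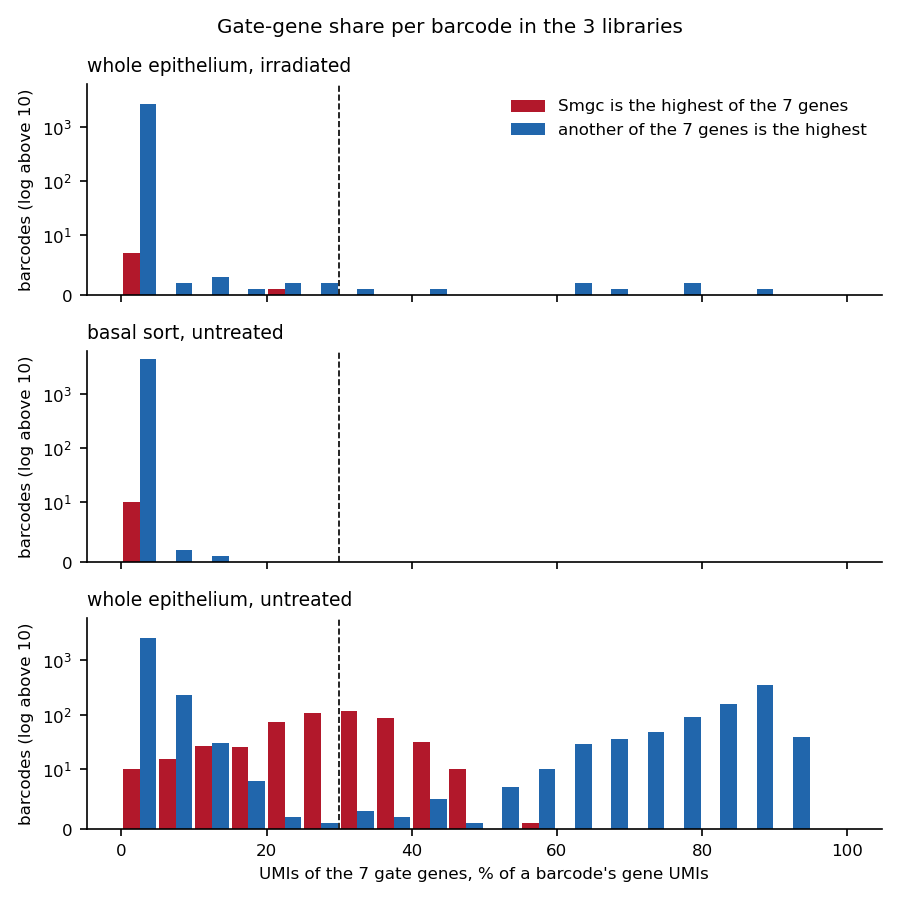
Number of barcodes past the quality filter (y axis, linear to 10 and logarithmic above) by the share of their gene UMIs that came from the 7 gate genes (x axis, %), for barcodes with Smgc as the highest of the 7 genes and for all others, in the irradiated, basal and untreated whole-epithelium libraries (top to bottom). The dashed line is the 30% gate; 8 irradiated, 0 basal-sort and 1026 untreated whole-epithelium barcodes lie at or above it, and the last form an Smgc-led group next to the line and another group above 60%.

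The gate held 2 kinds of barcode that hardly mixed. In 780 barcodes Mucl2 was the highest of the 7 genes, and in 246 it was Smgc. Mucl2-led barcodes gave a median of 58.9% of their UMIs to Mucl2 and 0.0102% to Smgc, while Smgc-led barcodes gave 31.5% to Smgc and 0.618% to Mucl2. The Smgc share reached at most 10.0% in a Mucl2-led barcode. The Mucl2 level of the Smgc-led barcodes was below the median of 0.859% in the other barcodes.

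The other gate genes followed Mucl2, apart from Pip. In Mucl2-led barcodes the medians were 11.05% Scgb1b27, 6.71% Scgb2b27, 3.49% Prol1, 2.16% Car6 and 1.36% Pip. In Smgc-led barcodes they were 0.0854%, 0.0995%, 0.0414% and 0.0152% for Scgb1b27, Scgb2b27, Prol1 and Car6, close to or under the other barcodes' medians of 0.102%, 0.0844%, 0.0576% and 0.0237%. Pip was the exception at 2.58% in Smgc-led barcodes, against 0.0235% in the other barcodes.

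The gate cut through the Smgc-led group and not through the Mucl2-led one. The 5 barcodes just inside it held 30.012% to 30.119% gate genes and the 5 just outside held 29.812% to 29.99%, and all 10 were Smgc-led. Between 30% and 35% lay 122 barcodes, 119 of them Smgc-led, and between 25% and 30% lay 109, with 108 Smgc-led. A further 221 Smgc-led barcodes with at least 10% Smgc stayed below the gate, at a median of 21.55% Smgc, 1.59% Pip and 0.720% Mucl2. Mucl2 led 1 of those 109 and 1 of the 74 barcodes between 20% and 25%, so few Mucl2-led barcodes lay just below the gate.

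**Figure D2:**
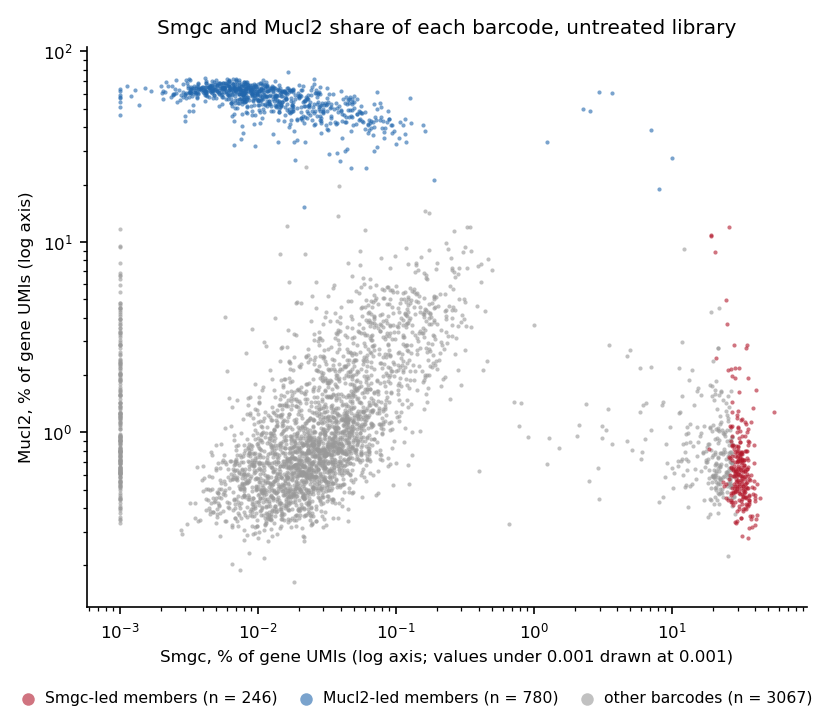
Share of gene UMIs from Smgc (x axis, %, logarithmic, values under 0.001 drawn at 0.001) and from Mucl2 (y axis, %, logarithmic) in each barcode of the untreated library past the quality filter. Red points are the 246 Smgc-led and blue points the 780 Mucl2-led acinar-gated barcodes, grey points the 3067 other barcodes; Mucl2 takes at least 15.3% in every blue point and at most 11.96% in every red one.

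Both kinds occurred in every mouse. Mucl2-led barcodes numbered 46, 47 and 50 in mice 1, 2 and 3 and Smgc-led ones 8, 12 and 10, with 618 and 215 among the unhashed barcodes. Summed over the acinar-gated barcodes, Mucl2 took 58.65%, 54.99% and 58.49% of UMIs in mice 1, 2 and 3, and 57.46% in the unhashed sum. Scgb1b27 took 10.4%, 11.9% and 10.3%. In the Smgc-led barcodes alone Smgc took 28.1%, 30.0% and 31.8% in the 3 mice and 32.2% in the unhashed sum. The gate genes were thus at similar levels in the mice and in the barcodes without a mouse.

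Within the Mucl2-led barcodes the secretoglobins varied together. Across the 436 of them with at least 50000 UMIs, the Spearman correlation of shares was 0.842 for Scgb1b27 with Scgb2b27 and -0.732 for Mucl2 with Scgb1b27; across all 780 it was 0.613 and -0.136. Prol1 with Car6 gave 0.332 in the deep barcodes and 0.284 in all. These are shares of a common total in 1 library, so a high share of one gene lowers the rest, and no test is attached. Depth split the group: 550 barcodes with at least 80% gate genes held a median of 102500 UMIs, 2900 genes and 1.39% mitochondrial UMIs, and the 230 below 80% held 17390 UMIs, 1376 genes and 8.47%.

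From here on levels are CPM, UMIs per 1000000 UMIs outside the 7 gate genes, summed over barcodes. The label of acinar cells held for the Mucl2-led barcodes on markers that the gate did not use. Aqp5 stood at 1670 CPM in Mucl2-led and 1031 CPM in Smgc-led barcodes, against 64.1 CPM in the other barcodes. Bhlha15, the transcription factor Mist1 that builds up the secretory machinery of exocrine cells, stood at 209 and 33.7 CPM, against 4.42 CPM. Spdef, a factor of mucous secretory cells, stood at 111 and 136 CPM, against 11.03 CPM. Krt19, Kdr, Flt1, Ptprc and Cd3e had 0 UMIs in all acinar-gated barcodes. Other markers of luminal duct, endothelium and leukocytes did have UMIs there, Krt7 the most with 492. The Smgc-led barcodes thus carried Aqp5, Spdef and Pip but Mucl2, Prol1 and Scgb1b27 only at the level of the other barcodes, and are called here by their leading gene and not as acinar cells.

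Markers of other cells were at low levels. Over the 3 mice the 5 ionocyte markers summed to 75.9 to 171 CPM in acinar-gated barcodes, against 446 to 625 CPM in the others, and to 14.3 CPM in the unhashed acinar-gated barcodes. The 4 luminal duct markers summed to 74.9 to 109 CPM, against 822 to 897 CPM, and the 4 basal duct markers to 3.08 to 7.70 CPM, against 57.8 to 172.5 CPM. The 4 fibroblast markers summed to 8.21 to 20.9 CPM, against 79.1 to 370 CPM, and the 4 endothelial markers to 0 to 1.21 CPM, against 13.4 to 42.35 CPM. The 5 leukocyte markers summed to 0 CPM in every mouse, against 1.83 to 9.52 CPM. In the unhashed sums the leukocyte markers were not lower, at 1.53 CPM in acinar-gated and 1.07 CPM in other barcodes. The 4 intercalated duct markers were the exception at 204 to 234 CPM, against 168 to 203 CPM. Nearly all of that sum was Elf5, at 186, 206 and 221 CPM, against 91.5, 87.6 and 104.6 CPM, while Kit stood at 14.5, 10.3 and 8.80 CPM, against 58.5, 44.3 and 53.4 CPM.

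Bpifa2, a secreted protein of salivary acini, did not mark these barcodes: it had 23 UMIs over all 1026, or 1.79 CPM. In the other barcodes it had 3200 UMIs, of which 3194 were in mouse 3. There 3 barcodes held all of them. Of mouse 3's 28979 Dcpp1, 64739 Dcpp2 and 99349 Dcpp3 UMIs, the 3 highest barcodes of each gene held at least 99.96%, and 2 barcodes of each had 100 UMIs or more.

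Genes other than the 7 set the Mucl2-led and Smgc-led barcodes apart as well. Of 1307 genes with at least 100 CPM in either unhashed sum, 233 were higher in Mucl2-led barcodes in all 3 mice and in the unhashed sum (17.83%), and 737 were higher in Smgc-led ones (56.39%). This split rests on the scaling, because Scgb2b26 alone took 214500 CPM of the Mucl2-led sum: without it the counts were 407 and 526 of 1415 genes, and with the sums centred on the median ratio 407 and 278 of 1026, which turns the split round. The sorting was chosen after the values were seen and carries no test, and the genes named next were chosen among those with the highest ratios, apart from Fos and Krt18. In the unhashed sums Agt, which codes for angiotensinogen, stood at 1023 CPM in Mucl2-led and 2.502 CPM in Smgc-led barcodes. Lpo, the lactoperoxidase of saliva, stood at 745.5 and 2.92 CPM, and Pigr, which carries IgA into saliva, at 476 and 2.502 CPM. Kcnn4, a calcium-activated potassium channel of acinar fluid secretion, stood at 659 CPM in Mucl2-led barcodes and at 0.834 CPM, or 2 counts, in Smgc-led ones. Elf5, an epithelial transcription factor, stood at 260 and 2.09 CPM.

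Genes higher in the Smgc-led barcodes included Fgg, Hp and Col11a1. In the unhashed sums Fgg, the fibrinogen gamma chain, stood at 1148 CPM in Smgc-led and 9.05 CPM in Mucl2-led barcodes. Hp, the haemoglobin-binding protein haptoglobin, stood at 492 and 5.27 CPM, and Col11a1, a fibrillar collagen chain, at 355 and 2.03 CPM. Serpinb11 stood at 338 and 1.76 CPM, and Dcdc2a at 149 and 0.540 CPM. The mice had the same direction, with smaller ratios for some genes. Hp was at 97.9, 249.6 and 254.1 CPM in the Smgc-led barcodes of mice 1, 2 and 3, against 6.89, 125.2 and 3.85 CPM in their Mucl2-led ones, and Fgg at 117.5, 151.1 and 361.9 CPM, against 4.13, 34.0 and 2.57 CPM. Mouse 2 thus had the least difference in both genes. Col11a1 was at 323, 420 and 731 CPM in the Smgc-led barcodes of mice 1, 2 and 3, against 1.38, 1.22 and 6.42 CPM in their Mucl2-led ones. The Smgc-rich barcodes below the gate had Fgg at 885 CPM, Hp at 749 CPM and Serpinb11 at 378 CPM, so these genes did not stop at the gate. Hp was higher still in intercalated duct-like barcodes (defined below), at 606, 1068 and 1144 CPM in the 3 mice. Fos, an immediate-early gene, stood at 2942 CPM in Smgc-led and 457.5 CPM in Mucl2-led barcodes, and Krt18, a keratin of simple epithelia, at 3793 and 1090 CPM.

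**Figure D3:**
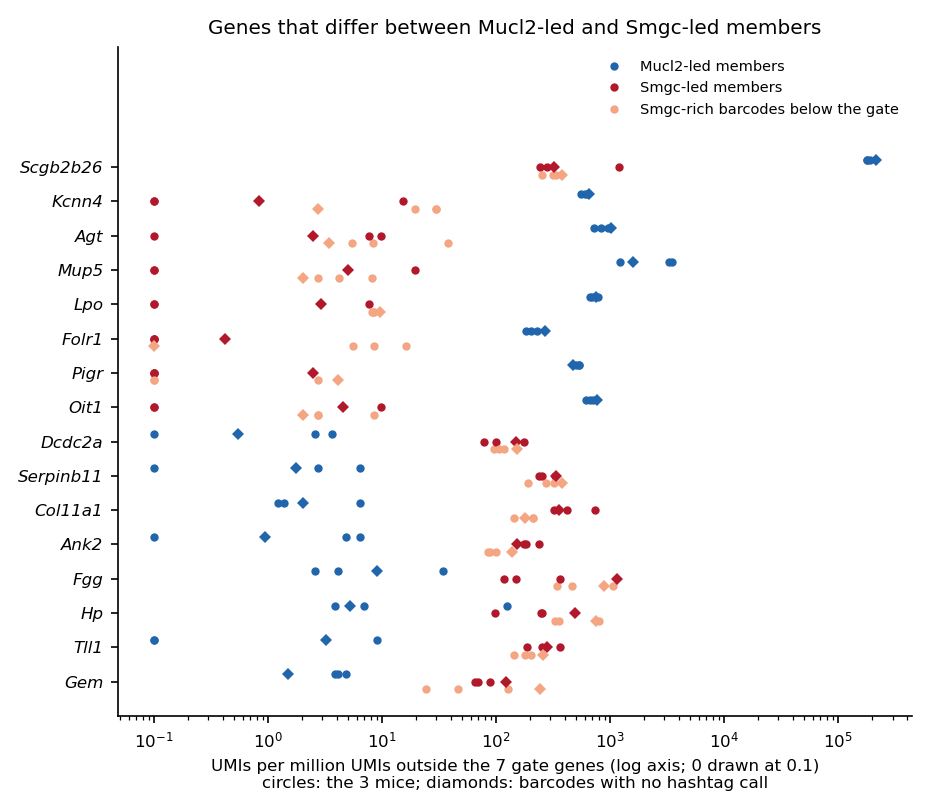
Levels (x axis, CPM, logarithmic, 0 drawn at 0.1) of the 8 genes with the highest ratio in each direction between Mucl2-led (blue) and Smgc-led (red) acinar-gated barcodes, with the Smgc-rich barcodes below the gate in orange. Circles are the 3 mice and diamonds the unhashed sums; the red and orange points lie together and apart from the blue ones for most genes, and Scgb2b26 is highest in blue at 214500.

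The acinar-gated barcodes were then compared with the other barcodes of the same mice, on counts of hashtag singlets summed per mouse. The test was edgeR's quasi-likelihood test with the mouse as a block, without the 7 gate genes, with a Benjamini-Hochberg adjusted p under 0.05 as the threshold. Sums held 828321 to 974730 UMIs outside the gate genes per mouse in the acinar-gated barcodes and 8574612 to 9562916 in the others. Of 10779 genes tested, 2355 were higher in acinar-gated barcodes (21.8%) and 2477 lower (23.0%). The members were picked by 7 genes of the same barcodes, so a gene that goes with those 7 in a cell had to differ. The p-values below say only that the difference within a mouse was large beside its variation over the 3 mice. That variation was estimated with information shared between genes, and level differences between mice were taken up by the block. Where a standard error (SE) is given, it is the absolute log2 fold change divided by the square root of the test's F statistic.

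Scgb2b26, the beta partner of the androgen-binding secretoglobins, was the largest acinar transcript outside the gate. It stood at 156000, 160300 and 154000 CPM in the acinar-gated barcodes of mice 1, 2 and 3, against 268.8, 278.6 and 256.5 CPM in the others. The groups lay far apart, with a log2 fold change of 9.31 (SE 0.06, adjusted p = 1.4e-23).

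Mup5, a lipocalin of the major urinary protein family, had the largest change. It stood at 1082, 2968 and 2843 CPM in acinar-gated barcodes, against 2.63, 2.51 and 2.22 CPM in the others (log2 fold change 9.91, SE 0.20, adjusted p = 4.8e-16). Mouse 1 was lowest of the 3, still far above every sum of the other barcodes. Genes of the Mup family resemble each other in sequence to differing degrees, and how reads were split between them was not examined. The same holds for Esp8 of the exocrine-gland-secreting peptides, which reached 78.5, 66.7 and 173 CPM, against 1.145, 0.314 and 0.233 CPM.

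Wfdc12, Lpo and Pigr were among the other large rises. Wfdc12, a small whey acidic protein-type protease inhibitor, stood at 16770, 16800 and 18050 CPM, against 80.7, 126.5 and 150.4 CPM (log2 fold change 7.34). Lpo stood at 612, 666 and 574 CPM, against 4.46, 3.56 and 3.38 CPM (7.46). Pigr stood at 467, 446 and 429 CPM, against 5.38, 3.77 and 5.25 CPM (6.67). The 3 mice were close to each other in the acinar-gated barcodes, while Wfdc12 in the other barcodes ran from 80.7 to 150.4 CPM. In the unhashed sums Wfdc12 stood at 15400 CPM, against 676 CPM. These genes were named for a large rise with the same direction in all mice, so the lack of overlap is a description only.

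The rest of the 10 genes with the largest rise were Oit1 (log2 fold change 7.64), Slc2a5, the fructose transporter (6.98), Agt (6.95) and Gjb1, the gap junction protein connexin 32 (6.54). Oit1 stood at 618, 564 and 526 CPM, against 2.52, 1.78 and 5.13 CPM. Gjb1 stood at 101.4, 99.5 and 122 CPM, against 0.687, 0.941 and 2.10 CPM.

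Among the 10 genes with the largest fall several had only a few counts in the acinar-gated barcodes. Duoxa2, the maturation factor of the duct oxidase Duox2, had 1 count in the acinar-gated singlets and 1434 in the others, a level 145-fold lower with a counting interval of 25.9 to 5720. Krt17 had 3 counts against 2022, and Apoe 3 against 1475. Klk1b22, a granular duct kallikrein, stood at 55.5, 51.3 and 30.8 CPM, against 967, 2095 and 1487 CPM (log2 fold change -4.90). Krt14, the keratin of basal and myoepithelial cells, stood at 2.42, 2.05 and 6.60 CPM, against 46.4, 139 and 106.6 CPM (-4.64). The remaining ones were Mgp, Klk1b3, Tm4sf1, Klk1b1 and Ptn, with log2 fold changes of -5.17, -5.04, -5.03, -4.98 and -4.44; Mgp in the other barcodes varied from 2.98 CPM in mouse 1 to 140 CPM in mouse 2, and the fibroblast marker sum was likewise lowest in mouse 1 and highest in mouse 2 there. Its part in the level of Mgp was not tested.

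**Figure D4:**
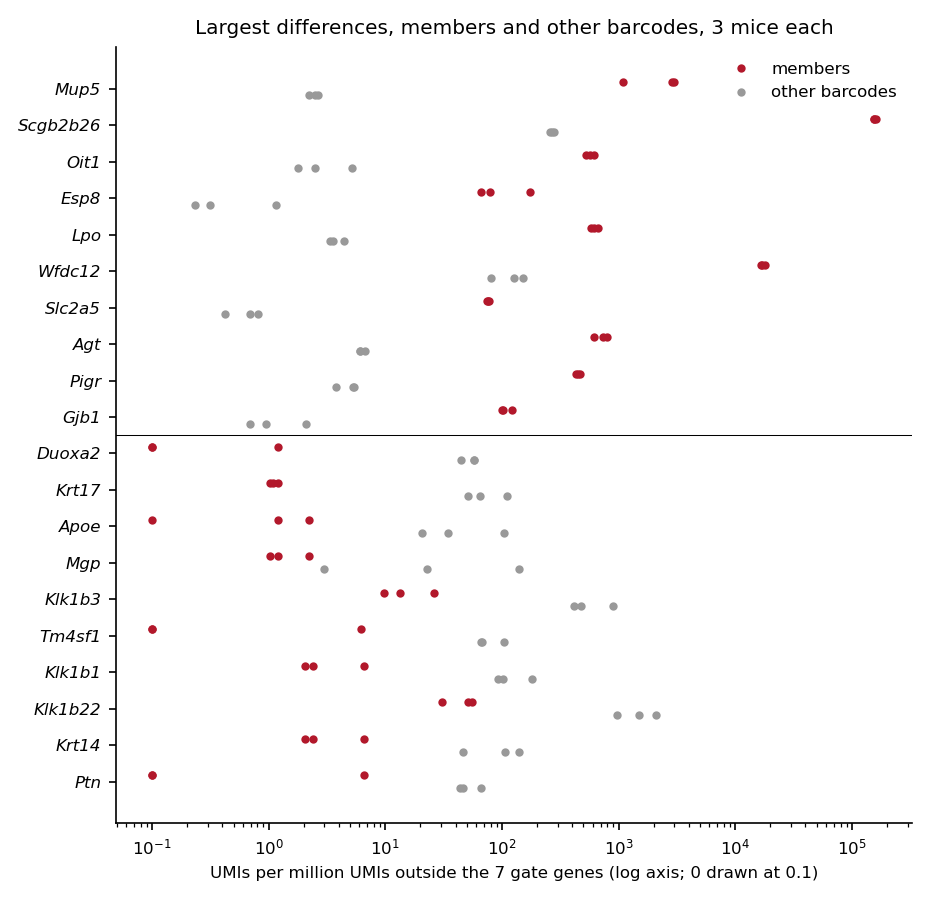
Levels (x axis, CPM, logarithmic, 0 drawn at 0.1) of the 10 genes with the largest rise (above the line) and the 10 with the largest fall (below it) in acinar-gated barcodes. Red points are the acinar-gated and grey points the other barcodes of the 3 mice; for Scgb2b26 the red points lie at 154000 to 160300 and the grey ones at 256.5 to 278.6.

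The tests against other cells were repeated within the library for the neighbours of the acini. Barcodes with raised Kit, Gfra3, Elf5 and Nkd2 were called intercalated duct-like (424) and those with raised Egf, kallikrein and other granular duct genes granular duct-like (349), and their marker genes were left out of the counts. Against intercalated duct-like cells, 1719 of 7182 genes were higher in acinar-gated barcodes (23.9%) and 1603 lower (22.3%). Against granular duct-like cells, 1809 of 7151 were higher (25.3%) and 1829 lower (25.6%). These splits rest on the scaling: with library totals in place of TMM the counts were 915 higher and 3152 lower against intercalated duct-like cells, and 3158 higher and 1022 lower against granular duct-like cells. The median log2 fold change of all tested genes was then -0.44 and 0.435, against -0.00 and -0.01 with TMM. Against all other barcodes it was -0.17 without TMM, against -0.05 with it. All 3 comparisons share the acinar-gated sums, and likenesses between them are not counted as results.

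Against intercalated duct-like cells the 5 largest rises were Mup5 (log2 fold change 9.56), Scgb2b26 (8.67), Slc2a5, Wfdc12 (7.55) and Oit1 (7.51). Slc2a5 had 207 counts against 1, a ratio of 226.5 with a counting interval of 40.2 to 8991. The 5 largest falls were Ifit3, Cxcl2, Fads2, Pir and Tm4sf1. Of these Ifit3, an interferon-induced gene, had 1 count in acinar-gated singlets and 221 in intercalated duct-like cells, Cxcl2, a chemokine, 1 and 210, and Fads2, a fatty acid desaturase, 3 and 264. Pir had a log2 fold change of -5.41 and Tm4sf1 of -5.35.

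Against granular duct-like cells the 5 largest rises were Mup5 (10.43 on the log2 scale), Scgb2b26 (9.42), Wfdc12 (8.52), Lpo (8.47) and Gjb1, with 292 counts against 1. The 5 largest falls were kallikreins of the granular duct, whose copies are similar enough for reads to be split between them. Klk1b26 stood at 1437, 748 and 758 CPM in acinar-gated barcodes, against 65360, 76090 and 52010 CPM in granular duct-like cells (log2 fold change -6.56). Klk1b22, Klk1b1, Klk1b16 and Klk1b5 had log2 fold changes of -7.52, -7.29, -6.85 and -6.15. All 8 granular duct markers had UMIs in acinar-gated barcodes, Ren1 with 2. They summed to 524, 443 and 244 CPM in the acinar-gated barcodes of mice 1, 2 and 3 and to 162 CPM in the unhashed ones, against 5308, 10410, 6497 and 4951 CPM in the other barcodes, and their part in these levels was not tested.

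The remaining genes are described by 15 lists of what acinar cells do. Each count stands against a background of 21.8% higher and 23.0% lower among all genes tested against the other barcodes. A list is described by its counts and its median log2 fold change, beside a median of -0.05 for all genes.

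Of 28 further saliva products, 15 were tested, and 9 were higher and 5 lower (median log2 fold change 3.34). Besides the genes named above, Tcn2, which carries vitamin B12, stood at 598, 613.5 and 561 CPM, against 176, 168.5 and 163 CPM (1.93), and Ccl28, a mucosal chemokine, at 62.8, 68.7 and 78.1 CPM, against 5.49, 8.05 and 8.75 CPM (3.34). Wfdc18 went the other way: 3109, 1212 and 354 CPM, against 5903, 5981 and 7298 CPM (-2.34). It was also lower than in intercalated duct-like cells (-4.65) and higher than in granular duct-like cells (3.61). The 3 Dcpp genes among the lower ones rested on the few barcodes of mouse 3 described above; Dcpp3 stood at 6.04, 8.21 and 12.1 CPM, against 4.35, 4.601 and 11590 CPM. Muc19, which shares its locus with Smgc, stood at 48.0 CPM in Smgc-led and 0.405 CPM in Mucl2-led unhashed barcodes.

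Of 15 tested regulators of acinar and secretory cells, 11 were higher and 2 lower (median 1.18). Creb3l1, an ER-anchored factor that switches on secretory pathway genes, stood at 215, 218.5 and 207 CPM, against 5.72, 5.65 and 6.06 CPM (log2 fold change 5.32, SE 0.13). Bhlha15 stood at 147, 178.5 and 164 CPM, against 4.12, 3.35 and 1.98 CPM (5.81, SE 0.17). Xbp1, the factor spliced in the unfolded protein response, stood at 346.5, 327 and 369 CPM, against 172, 143 and 187 CPM (1.18, SE 0.09). So Xbp1 RNA was present throughout the epithelium, and Creb3l1 and Bhlha15 RNA far more in the acinar-gated barcodes.

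Among the same regulators Spdef rose by 3.87 on the log2 scale, Agr2, an ER disulfide isomerase needed for mucins, by 4.43, and Sox10, a factor of acinar and intercalated duct cells, by 3.24. Sox9, a factor of developing gland epithelium, was lower at 250, 224 and 257 CPM, against 400, 363 and 401 CPM (-0.55). Within the acinar-gated barcodes Sox9 stood at 116.5 CPM in Mucl2-led and 824 CPM in Smgc-led ones (unhashed sums). Barx2 was lower than in intercalated duct-like cells (-1.15) and higher than in granular duct-like cells (2.54).

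The fluid secretion list was mixed, with 10 of 28 tested genes higher and 14 lower (median -0.48). The members with the largest rises were a water channel, a claudin and a potassium channel. Aqp5 stood at 1262, 1387 and 1520 CPM, against 22.4, 34.1 and 36.5 CPM (log2 fold change 5.62, SE 0.12), with no overlap. Cldn10, a claudin of paracellular ion flow, stood at 1006, 1149 and 1189 CPM, against 35.4, 42.7 and 59.9 CPM (4.75). Kcnn4 stood at 490, 511 and 545 CPM, against 4.69, 6.27 and 11.1 CPM (6.28). Slc12a2, the sodium-potassium-chloride cotransporter that loads chloride into the cell, was less specific at 956, 962 and 1040 CPM, against 602, 557.5 and 506 CPM (0.95).

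Receptors and the chloride channel gave smaller or mixed differences. Chrm3 and Chrm1, muscarinic acetylcholine receptors, rose by 1.59 and 2.48 on the log2 scale, and P2rx4, an ATP-gated channel, by 1.19. Ano1, the calcium-activated chloride channel, rose by 0.59 against all other barcodes, was lower than in intercalated duct-like cells (-1.68) and higher than in granular duct-like cells (3.70). Other transporters were lower: the sodium pump subunit Atp1b1 at -1.34, the bicarbonate transporter Slc4a4 at -2.60 and the cytosolic carbonic anhydrase Car2 at -2.50. The calcium release channel Itpr2 fell by 1.94 on the log2 scale, and Stim1 and Orai1, the sensor and channel of store-operated calcium entry, by 0.75 and 0.56. Against granular duct-like cells the list's median was -0.22, and 0.23 without TMM.

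Entry into the ER and N-glycosylation gave the most uniform list, with 29 of 31 tested genes higher and 0 lower (median 1.23). Sec61b, a subunit of the translocation channel, stood at 1428, 1631 and 1607 CPM, against 335, 333 and 322 CPM (log2 fold change 2.36, SE 0.08). Ssr4, of the translocon-associated complex, rose by 2.03, Sec11c and Spcs2, of the signal peptidase, by 2.36 and 1.95, and Krtcap2, of the oligosaccharyltransferase, by 1.96. Against intercalated duct-like cells 30 of these genes were higher and 0 lower, and against granular duct-like cells 25 and 2, with medians of 1.07 and 0.89. The list therefore stood above the background in each comparison, also beside the granular duct-like cells, which export protein in bulk themselves.

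ER folding and the unfolded protein response divided. Of 31 tested genes 23 were higher and 4 lower (median 0.86). P4hb, protein disulfide isomerase, stood at 1035, 930.5 and 991 CPM, against 150.4, 147 and 156 CPM (log2 fold change 2.83, SE 0.09). Fkbp11, a prolyl isomerase of secretory cells, stood at 608.5, 519 and 543.5 CPM, against 26.1, 33.6 and 34.3 CPM (4.27). Derl3, of ER-associated degradation, stood at 320, 277 and 289 CPM, against 31.7, 43.1 and 28.1 CPM (3.24).

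Hspa5, the main ER chaperone BiP, was among the 4 lower genes. It stood at 560, 505 and 538 CPM in acinar-gated barcodes, against 852.5, 838 and 1001 CPM in the others (log2 fold change -0.62, SE 0.09, adjusted p = 1.9e-05). The groups did not overlap. Pdia4, Pdia3 and Dnajb9, also chaperones or their helpers, were lower by log2 fold changes of -0.98, -0.40 and -1.15. Against intercalated duct-like cells Hspa5 had a log2 fold change of 0.22 with adjusted p = 0.12, and against granular duct-like cells -0.83. The sign of the first rests on the scaling. In CPM intercalated duct-like cells held 646, 482 and 751 in mice 1, 2 and 3, above the acinar-gated barcodes in mice 1 and 3. The whole list had 25 higher and 2 lower against intercalated and 15 higher and 9 lower against granular duct-like cells. Without TMM these counts were 18 and 2, and 18 and 5.

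Because the ER list divided, its promoters were searched for the ER stress element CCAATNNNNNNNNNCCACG on both strands of the 250 bases before the start. It was present in 9 of 26 promoters of the ER folding list (34.6%), against 35 of all 27025 promoters (0.13%). It was in 0 promoters of the other 14 lists and in 0 of the 7 gate genes. List and element were both chosen for the ER stress response, so these shares are a description and not a result of these cells. The Hspa5 promoter is given whole, with the element in capitals, since this gene carries the element and fell.
Hspa5, chr2:34771840-34772089, plus strand: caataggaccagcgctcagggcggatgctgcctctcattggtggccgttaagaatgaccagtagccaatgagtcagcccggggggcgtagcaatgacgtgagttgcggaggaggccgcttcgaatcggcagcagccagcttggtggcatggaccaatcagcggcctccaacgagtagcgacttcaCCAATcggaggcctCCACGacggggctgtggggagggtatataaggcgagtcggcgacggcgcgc
The sites of the other genes follow, with the letters of the element that are fixed in capitals.
Derl3, chr10:75893242-75893260: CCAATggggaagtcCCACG
Syvn1, chr19:6046532-6046550: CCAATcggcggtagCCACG
Dnajc3, chr14:118937827-118937845: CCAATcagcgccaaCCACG
Pdia6, chr12:17266491-17266509: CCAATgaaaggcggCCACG
Creld2, chr15:88819520-88819538: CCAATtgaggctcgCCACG
Canx, chr11:50325800-50325818: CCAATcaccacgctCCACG
Calr, chr8:84847075-84847093: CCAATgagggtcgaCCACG
Hsp90b1, chr10:86705638-86705656: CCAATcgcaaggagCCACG
Hsp90b1, chr10:86705533-86705551: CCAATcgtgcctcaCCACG
In this order the log2 fold changes against the other barcodes were 3.24 for Derl3, 2.02 for Syvn1, 1.64 for Dnajc3, 0.86 for Pdia6, 0.64 for Creld2, 0.30 for Canx, 0.27 for Calr and -0.10 for Hsp90b1, the last with adjusted p = 0.40, and Hspa5 had -0.62. Genes with the same fixed letters thus differed in direction and size. A match describes letters of the sequence and is not evidence that a factor binds there.

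The transport steps after the ER were higher nearly throughout. Of 33 tested genes between ER and Golgi 31 were higher and 1 lower (median 0.93). Tmed3, a cargo receptor of transport vesicles, stood at 622, 700 and 618 CPM, against 87.8, 104.3 and 88.6 CPM (log2 fold change 2.91), and Kdelr3, a receptor that returns ER proteins, rose by 3.74 on the log2 scale. Ergic3 was the lower one at -0.34. Against intercalated duct-like cells 28 of 31 were higher and 1 lower, and against granular duct-like cells 23 of 32 and 1.

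Mucin O-glycosylation was higher for 8 and lower for 4 of 16 tested genes (median 0.40). St3gal1, a sialyltransferase, stood at 260, 238 and 240 CPM, against 13.1, 10.4 and 11.6 CPM (log2 fold change 4.52). Among the enzymes that start O-glycans, Galnt7 (2.76) and Galnt3 (2.54) rose, and Galnt1 (-1.97) and Galnt2 (-2.001) fell. Enzymes of the same family thus differed in direction.

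Regulated exocytosis was higher for 8 and lower for 4 of 18 tested genes (median 0.28). Rab3d, a GTPase of secretory granules, stood at 130, 147 and 147 CPM, against 15.45, 15.1 and 17.6 CPM (log2 fold change 3.26). Slc17a9, which loads ATP into vesicles, rose by 6.34 and Sytl1, a Rab27 effector, by 1.82, while Vamp8 (-0.29) and Stx3 (-1.48), SNARE proteins of granule release, fell. Of the aminoacyl-tRNA synthetases, which load amino acids for translation, 17 of 19 were higher and 0 lower (median 0.73), with 13 and 14 higher and 0 lower against intercalated and granular duct-like cells. Sars stood at 179, 146 and 154 CPM, against 94.1, 84.7 and 82.6 CPM (0.99).

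The integrated stress response list had 6 of 13 higher and 5 lower (median -0.01). The enzymes of amino acid supply rose: Asns, asparagine synthetase, stood at 305, 277 and 279 CPM, against 40.2, 36.6 and 35.9 CPM (log2 fold change 3.06), and Phgdh, of serine synthesis, rose by 2.41. The stress factors Atf3 (-1.67) and Ddit3 (-1.68) fell, and Atf4 had -0.24 with adjusted p = 0.043.

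Immediate-early genes, which code for transcription factors and other proteins induced within minutes of a stimulus, were lower in every tested member, 20 of 20 (median -1.45). Fos stood at 805, 910.0 and 1048 CPM, against 2757, 2832 and 3977 CPM (log2 fold change -1.66), with no overlap, and Jun and Egr1 had -1.35 and -1.73. With Smgc-led barcodes left out all 20 were still lower (median -1.63). Against intercalated duct-like cells 16 of 18 tested were lower and 1 higher, and against granular duct-like cells 19 of 19 were lower. The Smgc-led barcodes did not share every fall. Ier2 stood at 291, 1330 and 956 CPM in the Mucl2-led, Smgc-led and other unhashed sums, and Zfp36 at 269, 1151 and 917 CPM. Fosb, at 65.5, 89.3 and 573 CPM, was low in both kinds. In mouse 2 Ier2 was lower in Smgc-led (355 CPM) than in other barcodes (890 CPM). Of 13 heat shock chaperones 12 were lower and 0 higher (median -0.96). Against granular duct-like cells 12 were lower and 0 higher (median -1.435). Against intercalated duct-like cells the fall was less uniform, with 7 lower and 1 higher (median -0.25). Hspa1a stood at 140.0, 241 and 257 CPM, against 358, 658.5 and 1277 CPM (-1.61); in both groups mouse 1 was lowest and mouse 3 highest. The mitochondrial share of all gene UMIs was lower in the same barcodes (3.06%, against 9.46%). That share counts the gate genes in its total and the levels here leave them out, so the bases differ. The part of mitochondrial UMIs in these levels was not tested.

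Oxidative phosphorylation depended on the neighbour chosen. Of 27 nuclear genes of the respiratory chain 3 were higher and 16 lower against all other barcodes (median -0.34), 18 higher and 1 lower against intercalated duct-like cells (0.37), and 0 higher and 20 lower against granular duct-like cells (-0.61). Without TMM the counts against intercalated duct-like cells were 5 and 8, with a median of -0.07. Cox4i1, a cytochrome oxidase subunit, had log2 fold changes of -0.48, 0.12 and -0.91 in these comparisons.

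Keratins and junctions of luminal cells were lower for 13 and higher for 2 of 18 tested genes (median -1.02). Krt7, a duct keratin, Cldn4, a tight junction protein, and Krt18 had log2 fold changes of -2.90, -2.80 and -1.47, and Epcam, the protein the sort used, -1.06. Of 12 tested proliferation genes 3 were lower and 0 higher (median -0.69).

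**Figure D5:**
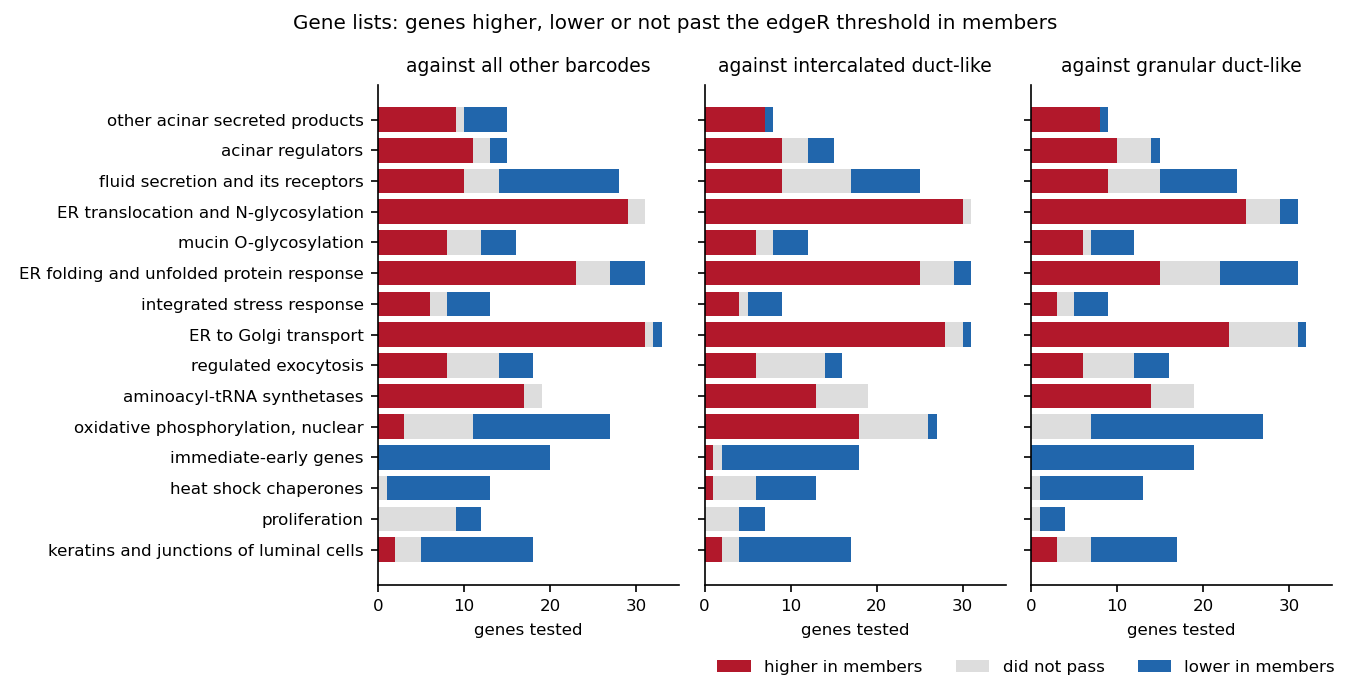
Number of tested genes (x axis) of each of the 15 lists that were higher (red), did not pass the threshold (grey) or were lower (blue) in acinar-gated barcodes, against all other barcodes, intercalated duct-like cells and granular duct-like cells. ER translocation and N-glycosylation has 29, 30 and 25 higher genes in the 3 panels, and immediate-early genes have 20, 16 and 19 lower ones.

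The 3 mice gave similar acinar-gated profiles. Over 1051 genes with a mean of at least 100 CPM, the median coefficient of variation over mice was 7.495% and the 90th percentile 17.4%. Of 1172 genes with at least 100 CPM in the acinar-gated barcodes of some mouse, 1 differed by 10-fold or more between the highest and lowest mouse. This was Cxcl10, an interferon-induced chemokine, at 43.5 CPM (95% Poisson interval 30.4 to 60.2) in mouse 1, 7.18 CPM (2.89 to 14.8) in mouse 2 and 291.5 CPM (257.5 to 329) in mouse 3. It had UMIs in 9, 6 and 9 barcodes of these mice, and a single barcode held 52.1% of the counts of mouse 3, so the interval covers counting error and not the spread between cells.

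Acinar-gated barcodes without a hashtag call resembled the hashed ones in summed levels but were shallower. They held a median of 30060 UMIs and 2516 genes, against 58480 UMIs and 2958 genes in the singlets that the tests use. Of 1103 genes with at least 100 CPM in either, 1087 (98.6%) lay within 2-fold between the unhashed sum and the mean of the mice, with a median log2 ratio of 0.05. The largest differences included duct genes that were lower without a call. Klk1, the tissue kallikrein, stood at 1960 CPM without a call, against 14900, 8359 and 8962 CPM in mice 1, 2 and 3. Crisp3, a cysteine-rich secretory protein, stood at 63.4 CPM, against 1025, 293 and 400.5 CPM. Fgg, a gene of the Smgc-led barcodes, was higher at 288 CPM, against 18.1, 52.3 and 53.9 CPM. Smgc-led barcodes were 215 of 833 without a call, against 30 of 173 singlets. Within the Smgc-led barcodes alone Fgg also differed, at 1148 CPM without a call, against 117.5, 151.1 and 361.9 CPM in the mice. The part of the Smgc-led share in the Fgg level was not tested.

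The acinar-gated barcodes as a whole held fewer kinds of transcript at the same depth outside the gate genes. With each barcode thinned to 3000 such UMIs, the median number of genes was 1078.5, 1112 and 1085.5 in mice 1, 2 and 3 (52, 59 and 60 barcodes), against 1245, 1215 and 1224 in the other barcodes (623, 658 and 619). All 3 mice went the same way, with a mean difference of -136.0 genes. The exact permutation test of the 3 pairs gave p = 0.25 (two-sided), the smallest value that 3 pairs allow. The Mucl2-led barcodes carried the difference, with medians of 1054, 1091 and 1069 genes in the 3 mice. The thinned UMIs still included Scgb2b26, at 177700, 189900 and 179600 CPM in the Mucl2-led barcodes of mice 1, 2 and 3. In the other barcodes it stood at 268.8, 278.6 and 256.5 CPM. The part of this 1 gene in the lower gene numbers was not tested. The Smgc-led ones had 1143, 1221 and 1235 genes, so they were below the other barcodes in mouse 1 alone. A low number was not particular to the acinar-gated barcodes, since granular duct-like ones had 898, 863 and 842 genes.

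The gate was then applied unchanged to the libraries it was not drawn from. In the irradiated library 8 of 2629 barcodes past the filter met it (0.304%, 95% exact binomial interval 0.1315% to 0.599%), against 1026 of 4093 (25.1%, 23.8% to 26.4%) in the untreated library. By mouse these were 0 of 362, 5 of 1313 and 0 of 478 in irradiated mice, against 54 of 725, 59 of 767 and 60 of 724 in untreated mice. The share per mouse averaged 0.127% ± 0.220 in irradiated and 7.81% ± 0.432 in untreated mice (SD, n = 3 each). The groups did not overlap, with a difference of -7.68 percentage points. The gate was drawn on the untreated library, so this difference is a description and carries no test. The mice without a gated cell allow shares of up to 0.829% and 0.628% by counting error.

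The shares by mouse leave out the barcodes without a call, where the gate was met by 1 of 294 in the irradiated library, against 833 of 1719 (48.5%) in the untreated one. The difference was -12.8 percentage points with a mitochondrial limit of 10% and -4.68 with no limit. The libraries differed in mitochondrial share, depth, the Mucl2 share of all barcodes and in hashtag calls, as given above, and their part in the difference was not tested; fewer acinar cells recovered from the gland and fewer acinar cells in it cannot be told apart.

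Of the 8 irradiated barcodes 7 were Mucl2-led and 1 was led by Scgb1b27. Their gate share ran from 30.3% to 88.4%, and their depth from 1449 to 589919 UMIs. Smgc was at 0 UMIs in all 8. Over the whole irradiated library 1 barcode past the filter had at least 10% Smgc, against 468 in the untreated library.

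In the basal sort 0 of 4418 barcodes met the gate, which allows a share of up to 0.0679%. By mouse it was 0 of 1340, 0 of 829 and 0 of 1051, with upper limits of 0.224%, 0.362% and 0.285%, against 7.45%, 7.69% and 8.29% in the whole epithelium of the untreated mice. The difference was -7.81 percentage points, again a description with no test. This sort required high Cd49f on the surface, so sort and library cannot be told apart, and the comparison uses the same untreated mice as the irradiated one.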

How the data were processed

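Gene and hashtag UMI counts per barcode were deposited by the authors as filtered matrices, made with Cell Ranger 6.1.2 on mm10, per the submitters' processing notes; further filters by the authors are not given in the sources used here. The barcode filter (500 genes, 20% mitochondrial UMIs) and the gate (30% of UMIs from 7 genes) were applied here, and the members, gene lists and named-gene rule were chosen with earlier results of these data known. HTODemux (Seurat 5.3.0, positive quantile 0.99, 5 starting clusters) gave the hashtag calls; hashtag doublets and barcodes without a call entered no test by mouse, and mice are the replicates (n = 3, 1 library per condition).

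Counts were summed per mouse and class without the 7 gate genes, and for the classes without their marker genes. They were filtered (filterByExpr), scaled (TMM) and tested with edgeR 4.0.16 (limma 3.58.1, R 4.3.3) with the mouse as a block, since both sums of a pair come from the same animal. Scripts were tested on simulated data. A class was given to a barcode whose marker sum per 10000 UMIs was at least 2 times the mean of barcodes outside the gate, with at least 3 UMIs. Named are the 10 genes per direction (5 against the classes) with the largest change past the threshold, the same direction in all mice and at least 50 CPM where higher (predicted genes, ribosomal proteins and mitochondrial genes excepted), plus 6 genes or fewer of each list, those highest in members; further list genes and those contrasting Mucl2-led with Smgc-led barcodes were picked after their values were seen. Thinned gene numbers were tested by exact permutation with scipy 1.17.1; shares past the gate are given without a test, since the gate was drawn on the untreated library. Intervals are 95% and cover counting error only; limits of a count of 0 use 3 counts. Ratios of genes with 3 counts or fewer on a side are count ratios with intervals. Alternatives were DESeq2 1.42.0, no TMM, no block, no filter, other gates and mitochondrial limits, hashtags by a 70% share, thinning to 3000 UMIs, each mouse left out and, added after seeing the data, Smgc-led barcodes left out and other scalings of the Mucl2-led and Smgc-led sums. Values of 4 genes that belong to these lists or markers are not reported here, though they count in the totals.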

Additional observations from a re-analysis of the deposited data

Results flagged for a closer look

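A signal lay outside the barcodes described above. Of barcodes with at least 500 genes but over 20% mitochondrial UMIs, 0 of 112 in the irradiated library and 0 of 315 in the basal sort met the gate. In the untreated whole epithelium 99 of 1756 met it, a smaller share than the 1026 of 4093 past the quality filter. These 99 had a median of 6297 UMIs, 753 genes, 28.9% mitochondrial UMIs and a gate share of 48.3%. With fewer than 500 genes the gate was met by 10 irradiated and 19 basal-sort barcodes, against 359 in the untreated whole epithelium. These libraries held 3319, 5044 and 8277 barcodes in all.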

How the results depend on the processing

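Of 633 alternative values for the named genes 631 kept their direction and side of the threshold, 2 lost the threshold (Mgp without the replicate block at -5.11, Klk1b22 with mice called by hashtag share at -3.01) and 0 reversed. Without the replicate block, that is without pairing by mouse, calls against the other barcodes were 2416 higher and 2499 lower, against intercalated duct-like cells 1693 and 1568, and against granular duct-like cells 1794 and 1793, and it changed no other named call. Counts fell where fewer cells or UMIs entered: with mice called by hashtag share (9 to 11 members in mice 1 and 3) they were 928 higher and 925 lower, 523 and 491, and 478 and 386 in these comparisons, and with barcodes thinned to 3000 UMIs 1024 and 1091, 675 and 635, and 535 and 501. With DESeq2 there were 1660 higher and 1609 lower against the other barcodes, 972 higher and 799 lower against intercalated, and 1044 higher and 1021 lower against granular duct-like cells; the cause was not tested. Without TMM they were 915 and 3152 against intercalated and 3158 and 1022 against granular duct-like cells. Leaving out each mouse gave 1934 to 2030 higher and 2051 to 2145 lower, 1374 to 1585 and 1192 to 1450, and 1526 to 1650 and 1501 to 1684. The share difference between irradiated and untreated mice was -9.42 with a gate of 20%, -6.16 with 50% and -9.90 with hashtags by share, and genes per cell differed by -152.5 to -120.8 with a mouse left out and by -92.7 at 1500 UMIs.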

Other observations

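Further genes separated the Mucl2-led from the Smgc-led barcodes; they were picked after their values were seen and carry no test. Ifi27l2a, an interferon-induced gene, stood at 1653, 3582 and 2562 CPM in the Mucl2-led barcodes of mice 1, 2 and 3 and at 137, 52.5 and 23.1 CPM in their Smgc-led ones. Cd44, the hyaluronan receptor, stood at 89.5, 77.8 and 79.6 CPM in the Mucl2-led barcodes and at 0 in the Smgc-led barcodes of every mouse. Tll1, a metalloprotease of the BMP1 family, stood at 186, 361 and 254 CPM in Smgc-led and at 0, 0 and 8.99 CPM in Mucl2-led barcodes. Ramp1, a receptor activity-modifying protein, stood at 147, 210.2 and 146 CPM in Smgc-led and at 4.13, 15.8 and 7.70 CPM in Mucl2-led barcodes. Car8, a carbonic anhydrase-related protein, stood at 127, 236.5 and 231 CPM in Smgc-led and 1.38, 24.3 and 10.3 CPM in Mucl2-led barcodes, and at 262.5, 238 and 209.5 CPM in intercalated duct-like ones.

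The transcript 2310057J18Rik, outside the naming rule, stood at 456, 118 and 92.4 CPM in the acinar-gated barcodes of mice 1, 2 and 3, against 0.572, 0.418 and 0.350 CPM in the others. Its coefficient of variation over the mice was 91.4%.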
